A study of Mus musculus with 16 samples.

Results

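The genes described are the integrin subunits that leukocytes carry on their surface: Itgam (CD11b), Itgal (CD11a), Itgax (CD11c) and Itgad (CD11d), their shared partner Itgb2 (CD18), and the pair Itga4 (CD49d) and Itgb1 (CD29). Members were chosen by name, and every noncontrol probe whose RefSeq accession maps to one of these 7 symbols was read singly. This gave 12 probes of the 39429 noncontrol probes on the array, with 3 for Itgam, 2 each for Itgal, Itga4 and Itgb1, and 1 each for Itgb2, Itgax and Itgad. The 7 genes stand among 20659 that could be named on the array. The study used 16 one-colour arrays for RNA of CD11b+ cells, taken either from spleen or from bone marrow. The genotypes were WT, STAT4-/-, STAT6-/- and HDC-/-, and each received either the control diet or, for 3 months, one high in fat, which the labels describe as a mouse model of atherosclerosis. STAT4 and STAT6 are transcription factors that act downstream of cytokine receptors, and HDC is histidine decarboxylase, the enzyme that makes histamine. Each combination of genotype, tissue and diet has 1 array, hybridised with RNA from the pooled cells of 5 mice, all labelled male. The ages of the mice, the way CD11b+ cells were isolated and whether spleen and marrow came from the same animals are not given in the sources used here. With 1 array per combination there are no replicates of a condition. The p-values of the main fit rest on how the difference between the diets varies among the genotypes within a tissue. Both diets of a genotype in a tissue were scanned together. These p-values therefore hold no spread between scans, and none between genotypes in the tissue change.

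Integrins are pairs of 1 alpha and 1 beta chain that bind other cells and the matrix. The beta2 integrins are found on leukocytes: CD11a/CD18 (LFA-1) binds ICAMs, CD11b/CD18 (Mac-1, complement receptor 3) binds complement fragment iC3b, fibrinogen and ICAM-1, CD11c/CD18 is abundant on dendritic cells, and CD11d/CD18 is found on macrophages, those of the splenic red pulp among them. CD49d/CD29 (VLA-4) binds VCAM-1 and fibronectin and serves the lodging of progenitors in marrow and of lymphocytes and monocytes at inflamed vessels. CD11b is high on neutrophils and monocytes, and is also carried by NK cells, some macrophages and some dendritic cells, so a CD11b sort can hold several cell types.

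Itgam, Itgax and Itgad lie next to each other on mouse chromosome 7, within 142.9 kb from the start of Itgam to the end of Itgad in GRCm38.p6, with only 2 pseudogenes between them. Itgal ends 727.5 kb before Itgam. The promoters of Itgam and Itgax are shown because these neighbours moved in opposite directions between spleen and marrow. Each stretch runs from 250 bases before to 50 bases after a transcript start given by RefSeq (GRCm38.p6, plus strand), chr7:128062390-128062689 for Itgam and chr7:128129300-128129599 for Itgax. Capitals mark GAGGAA, the core of the site of the myeloid factor PU.1, read on either strand (TTCCTC on the other).
Itgam: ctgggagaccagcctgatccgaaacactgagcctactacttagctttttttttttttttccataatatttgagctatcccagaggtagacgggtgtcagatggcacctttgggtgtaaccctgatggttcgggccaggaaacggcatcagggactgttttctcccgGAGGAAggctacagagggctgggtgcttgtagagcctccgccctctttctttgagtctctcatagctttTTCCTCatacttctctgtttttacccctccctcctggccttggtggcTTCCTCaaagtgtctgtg
Itgax: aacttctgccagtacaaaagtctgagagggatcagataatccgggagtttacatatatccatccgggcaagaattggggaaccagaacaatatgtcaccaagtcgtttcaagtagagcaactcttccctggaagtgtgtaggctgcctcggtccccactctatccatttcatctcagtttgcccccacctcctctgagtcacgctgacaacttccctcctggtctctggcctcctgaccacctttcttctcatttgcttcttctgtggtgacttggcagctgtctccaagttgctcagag
The Itgam window holds the motif 3 times, with its first base at -84, -15 and +33 relative to the start, and the Itgax window does not hold it. Of the other members, the window of Itgb1 holds it 1 time and that of Itga4 does not. The motif occurs in 28.3% of all 32851 promoter windows in the table, so its presence in 2 of 4 member windows is a description only.

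The share of probes well above background was 59.8% to 85.2% per array, and no spot was saturated. The arrays fall into 4 scans of 4 arrays that share a scan time. Each scan held 1 tissue, with WT and STAT4-/- together and STAT6-/- and HDC-/- together, so tissue has no value within a scan, and STAT6-/- or HDC-/- against WT cannot be told apart from scan. Some arrays went against their labels. On the 4 arrays labelled STAT4-/-, Stat4 signal was 0.41 to 3.51, against -0.89 to 1.33 on the other 12, so these are called the arrays labelled STAT4-/-; Stat6 was 2.54 to 3.04 on the 4 STAT6-/- arrays against 2.34 to 4.14 on the others, and Hdc was 0.98 to 1.92 on the 4 HDC-/- arrays against 4.06 to 5.79 on 11 others. The control-diet arrays labelled STAT4-/- and HDC-/- of both tissues, 4 in all, had a mean Y-linked signal (Ddx3y, Eif2s3y, Uty) of -8.39 to -5.57, against -0.62 to 0.35 on the other 12, although all mice are labelled male. Signal of the X-linked Xist was -4.20 to -2.93 on these 4 arrays, against -9.26 to -5.44 on the other 12. Why these arrays differ was not tested. The high-fat spleen array labelled STAT4-/- had a mean correlation of 0.97 with marrow arrays but of 0.95 with the rest of spleen, and the control-diet HDC-/- marrow array one of 0.953 with spleen arrays and 0.945 with its own tissue. All of these levels are log2 signal over the 75th percentile of the array (called log2 level below), which is 0 where a probe equals that percentile. Levels of different probes are not compared with each other, since probes differ in brightness.

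All 12 integrin probes were well above background on 16 of 16 arrays, except the Itga4 probe A_66_P140103, which was so on all 8 spleen arrays and 7 of 8 marrow arrays.

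Itgam, the gene of the protein on which the cells were sorted, was lower in CD11b+ cells of spleen than of marrow. On the probe A_55_P1977934, the brightest of the 3, the log2 level in spleen was 3.81 and 4.03 for WT (control and high-fat diet), 4.63 and 6.05 for the STAT4-/- label, 4.68 and 3.92 for STAT6-/-, and 3.13 and 4.97 for HDC-/-. In marrow it was 5.97 and 5.92 for WT, 5.87 and 5.38 for the STAT4-/- label, 5.95 and 6.06 for STAT6-/-, and 4.74 and 5.74 for HDC-/-. The marrow arrays thus lay between 5.38 and 6.06 apart from the control-diet HDC-/- array below them, while spleen spread over a wider range, in which the high-fat array labelled STAT4-/- reached the marrow level. Both of these outlying arrays are the ones nearer the other tissue over all probes, and without them the ranges of the tissues did not overlap on any of the 3 Itgam probes. Those arrays were picked from these same data and are the ones that make the overlap. The lack of overlap is therefore a description only and no test of the tissue change. The spleen-minus-marrow change was -1.30 (SE 0.30, limma adjusted p = 0.00946), a 2.47-fold lower signal in spleen, lower in 7 of 8 matched pairs of arrays of the same genotype and diet. An exact two-sided sign-flip permutation over the 8 pairs gave p = 0.0156, where the smallest possible is 0.0078. That test treats the 8 pairs as separate. However, pairs of WT and the STAT4-/- label share their scans, as do those of STAT6-/- and HDC-/-. A difference between scans would be shared by such pairs, and the test does not take it into account. The other probes gave like values: A_55_P1977929 changed by -1.12 (SE 0.26, limma adjusted p = 0.0104) and A_55_P1977926 by -1.10 (SE 0.28, limma adjusted p = 0.0159), each lower in spleen in 8 of 8 pairs. Without the 4 arrays of low Y-linked signal the change on the brightest probe was -0.88 (SE 0.27) and no longer passed (limma adjusted p = 0.0765), and neither did A_55_P1977929 (-0.93, limma adjusted p = 0.0572) or A_55_P1977926 (-0.88, limma adjusted p = 0.0872). The fit without these 4 arrays has fewer residual degrees of freedom than the main one. Without scaling between arrays A_55_P1977926 was also lost (-0.67, limma adjusted p = 0.0635). In these bulk RNAs, fewer cells of a type and less RNA per cell cannot be told apart.

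**Figure D1:**
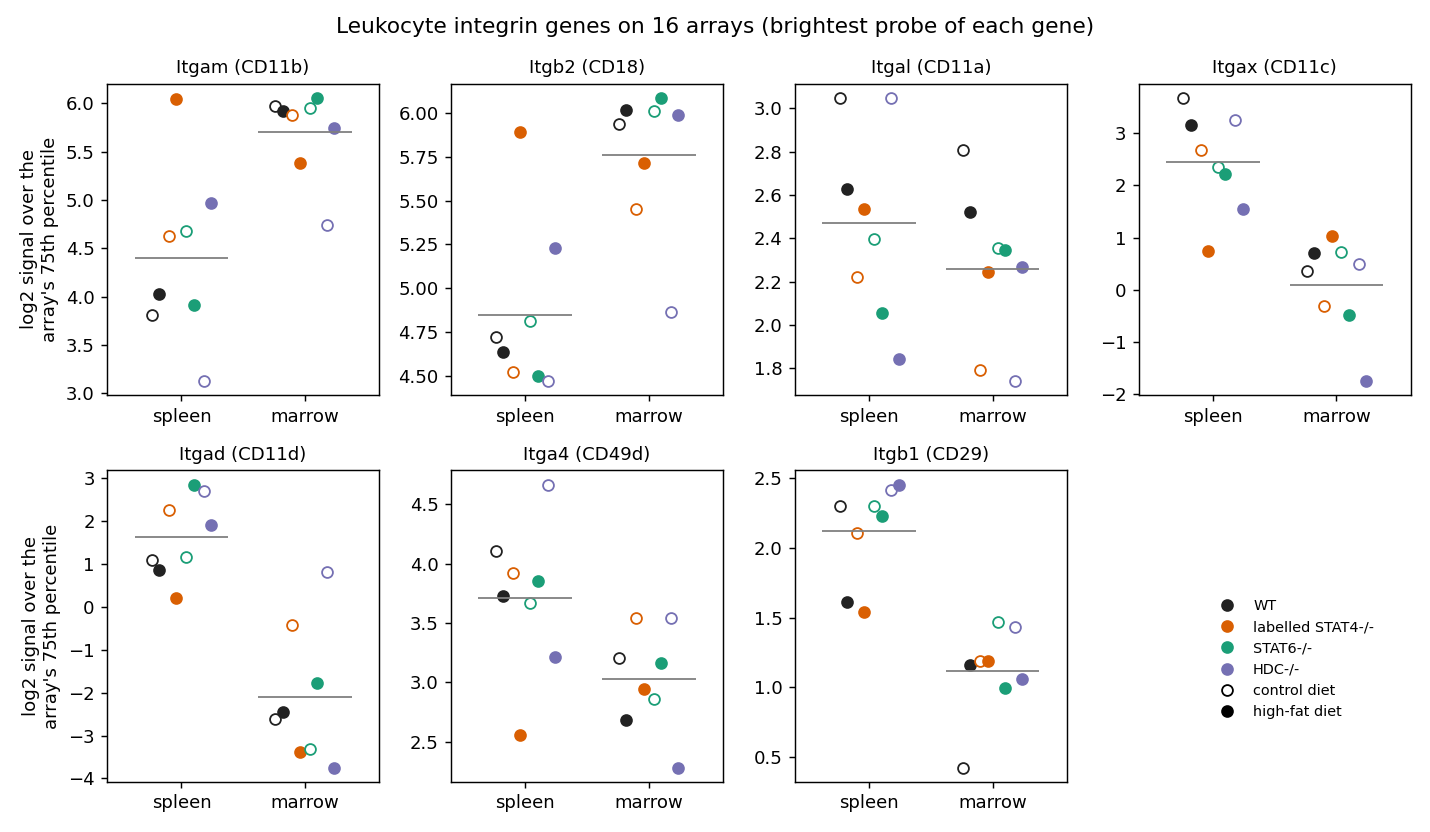
Log2 signal over the array's 75th percentile (vertical axis) for the brightest probe of each of the 7 genes, by tissue; each point is 1 array, coloured by genotype label, open for control and filled for high-fat diet, and the grey line is the mean of the 8 arrays of a tissue. By the mean, Itgam and Itgb2 lie higher in marrow, where the control-diet HDC-/- array is lowest for both, and Itgax and Itgad lie higher in spleen. Among pairs of the same genotype and diet, only the high-fat one labelled STAT4-/- goes the other way for Itgam, Itgb2 and Itgax. The high-fat spleen array labelled STAT4-/- sits near the marrow arrays for Itgam, Itgb2 and Itgax. For Itgad it lies at 0.22, above most marrow arrays.

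Itgb2, the beta chain that every CD11 protein needs to reach the surface, moved the same way as Itgam. Its log2 level in spleen was 4.47 at the lowest, 4.68 at the median and 5.89 at the highest, and in marrow 4.86, 5.96 and 6.09. Spleen arrays other than the high-fat one labelled STAT4-/- (5.89) and the high-fat HDC-/- one (5.23) lay within 4.47 to 4.82. The change was -0.91 (SE 0.23, limma adjusted p = 0.0148), a 1.88-fold lower signal in spleen, lower in 7 of 8 pairs. Itgb2 did not pass without the 4 arrays of low Y-linked signal (-0.75, SE 0.23, limma adjusted p = 0.0784) or without scaling (-0.48, limma adjusted p = 0.099). Itgal, the alpha chain of LFA-1 that lymphocytes and myeloid cells share, passed on neither probe. Probe A_51_P466378 had log2 levels of 1.85 to 3.05 in spleen and 1.74 to 2.81 in marrow (change 0.21, SE 0.20, limma adjusted p = 0.45), and A_55_P2184601 of 1.097 to 2.22 and 0.69 to 1.81 (change 0.40, SE 0.21, limma adjusted p = 0.161). The ranges of the tissues overlapped over most of their width on both.

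Itgax and Itgad, the alpha chains linked to dendritic cells and macrophages, were higher in spleen. The log2 level of Itgax was 0.75, 2.51 and 3.68 (lowest, median, highest) in spleen and -1.74, 0.43 and 1.02 in marrow. The overlap came from the high-fat spleen array labelled STAT4-/- at 0.75 alone, the next spleen array being the high-fat HDC-/- one at 1.54. The change was 2.36 (SE 0.38, limma adjusted p = 0.00212), a 5.12-fold higher signal in spleen, higher in 7 of 8 pairs. Itgad had the largest change of the 12 probes. Its log2 level was 0.22, 1.54 and 2.86 in spleen and -3.74, -2.52 and 0.81 in marrow. Marrow arrays lay between -3.74 and -1.78, except that the 2 control-diet arrays of low Y-linked signal lay above them, at -0.42 (STAT4-/- label) and 0.81 (HDC-/-). The change was 3.75 (SE 0.63, limma adjusted p = 0.00262), a 13.4-fold higher signal in spleen, higher in 8 of 8 pairs.

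Both chains of VLA-4 were higher in spleen on at least 1 probe. Itgb1 rose on both: A_66_P113059 had log2 levels of 1.54 to 2.46 in spleen and 0.43 to 1.47 in marrow (change 1.00, SE 0.19, limma adjusted p = 0.00465; 0.0574 without the 4 arrays of low Y-linked signal), and A_52_P351816 of -1.54 to -0.51 and -2.41 to -1.54 (change 0.96, SE 0.20, limma adjusted p = 0.00621). Both were higher in 8 of 8 pairs, and A_66_P113059 was the only one of the 12 probes whose tissue ranges did not overlap over all 16 arrays. The Itga4 probes differed in size. The dimmer one, A_66_P140103, had log2 levels of -4.13 to -2.12 in spleen and -5.28 to -4.00 in marrow and rose by 1.81 (SE 0.25, limma adjusted p = 0.000991). The brighter one, A_55_P2040026, had 2.55 to 4.67 in spleen and 2.28 to 3.55 in marrow, and its change of 0.69 (SE 0.24) did not pass (limma adjusted p = 0.055). Each was higher in spleen in 7 of 8 pairs, the exception being the high-fat pair labelled STAT4-/-.

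Of the 12 probes, 5 were called higher in spleen, 4 lower and 3 were not called. Over all 34449 probes tested, 31.9% were called between the tissues, 15.1% higher and 16.7% lower in spleen, with a median change of -0.05. With the brightest probe of each gene, 3 of 7 were called higher and 2 lower. Without the 4 arrays of low Y-linked signal 4 probes were called, all higher in spleen, where 13.7% of all probes were called. This share, and not 31.9%, belongs to every list count given below without these 4 arrays. An additive model called 10, 6 higher and 4 lower, with scan as a random block and without it. In this balanced design the block cannot move an estimate, and the estimated correlation within scans was -0.0036, so it gives no check of tissue against scan.

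**Figure D2:**
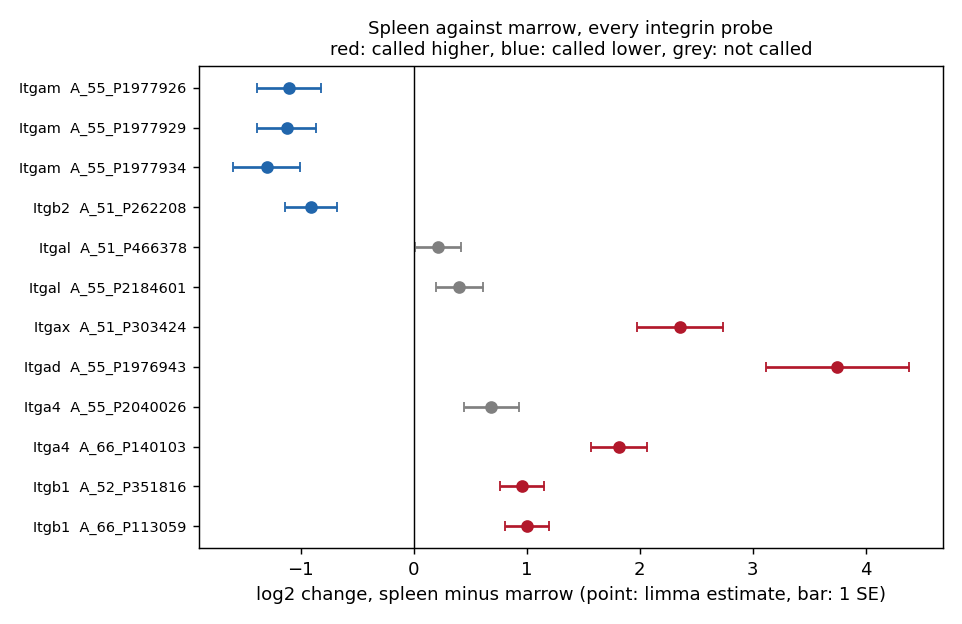
Log2 change between spleen and marrow for each of the 12 integrin probes (horizontal axis, spleen minus marrow); points are limma estimates over 16 arrays and bars 1 SE. The Itgam and Itgb2 probes lie at -1.30 to -0.91, the Itgal probes near 0, and Itgad farthest to the right at 3.75.

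Among 16 other integrin subunits tested, 5 rose in spleen and 1 fell, with a median change of -0.04. For this and the list counts of the main fit below, the share over all probes tested was 31.9% called, 15.1% higher and 16.7% lower in spleen. Itga9, an alpha chain that pairs with beta1, rose by 3.43 (SE 0.52, limma adjusted p = 0.00154), Itga7, a laminin-binding alpha chain, by 1.41 (SE 0.26), and Itgb7, the other partner of Itga4 and the chain used for homing to the gut, by 1.32 (SE 0.31). Itgb3, the beta chain of the platelet fibrinogen receptor, fell by 0.78 (SE 0.19, limma adjusted p = 0.0119). Of 18 genes that favour or restrain the switch of integrins to the binding state, 1 rose and 6 fell, with a median of -0.25. The list mixes both kinds, so its count and median give no direction for that switch. The small GTPase Rap1a fell by 1.67 (SE 0.18), its effector Rassf5 fell by 0.98 (SE 0.20) and Apbb1ip (RIAM), which brings talin to the membrane, fell by 0.94 (SE 0.20), while the T-cell adaptor Skap1 rose by 3.67 (SE 0.46).

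Of 21 genes that act below bound integrins, 1 rose and 12 fell, with a median of -0.69. Vcl (vinculin), which ties integrins to actin, fell by 1.45 (SE 0.38), the focal adhesion adaptor Lims1 fell by 1.41 (SE 0.26) and the exchange factor Vav3 fell by 1.23 (SE 0.25), while the focal adhesion kinase Ptk2 rose by 3.52 (SE 0.63). Of 19 ligands, 5 rose and 3 fell, with a median of -0.13. Thy1, a T-cell surface protein that CD11b/CD18 can bind, rose by 3.94 (SE 0.46) and Icam1, the ligand of LFA-1 and Mac-1, by 1.20 (SE 0.24), whereas Fn1 (fibronectin), the ligand of VLA-4, fell by 1.30 (SE 0.33). Without the 4 arrays of low Y-linked signal 4 of 21 signalling genes and 2 of 18 activation genes were called lower, and of the ligands 2 were called higher and 0 lower, of the other subunits 3 and 0. The share of all probes called was smaller in that fit too, as given above.

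Markers of other cells moved with the tissues as well. All 11 B-cell genes tested were called higher in spleen, and the mean log2 level of the list was -0.93 to 2.57 on spleen arrays and -2.97 to -0.21 on marrow arrays. The T-cell list had 10 of 11 higher and 1 lower, with list levels of -1.29 to 2.05 and -2.32 to -1.06, and the NK list 8 of 8 higher, at -3.40 to 1.89 and -4.15 to -1.06. Conventional dendritic genes were higher for 7 of 8 (-2.28 to 0.29 against -3.72 to -2.63) and red pulp macrophage genes for 8 of 9 (-0.19 to 1.84 against -2.73 to 0.78). Spic, the transcription factor of red pulp macrophages, rose by 3.93 (SE 0.59), Batf3, that of cross-presenting dendritic cells, by 3.22 (SE 0.23) and Cr2, complement receptor 2 of B cells, by 5.14 (SE 0.46). Of 12 general myeloid genes 8 fell in spleen and none rose, and the list level was 3.06 to 4.42 in spleen and 3.65 to 4.66 in marrow. Of 11 neutrophil genes 5 fell and none rose (list level 4.08 to 5.97 and 5.29 to 6.15), of which Mmp9 fell by 1.85 (SE 0.37) and Mmp8 fell by 1.56 (SE 0.26). Without the 4 arrays of low Y-linked signal, 2 of 12 myeloid and 3 of 11 neutrophil genes were called lower. In that fit the share of all probes called was smaller as well, as given above. The myeloid count was not far from that share.

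Of 7 monocyte genes 1 rose and 1 fell, where 31.9% of all probes tested were called between the tissues. Primary granule and progenitor genes fell for 4 of 6, of which Mpo fell by 1.85 (SE 0.44), and early B-cell genes fell for 4 of 8 and rose for 1. Plasma cell genes were higher for 4 of 5, erythroid genes for 3 of 6, and megakaryocyte genes lower for 2 of 6. Of the primary granule and megakaryocyte genes, 0 of 6 each were called without the 4 arrays of low Y-linked signal. Of the lymphoid lists, 9 of 11 B-cell and 10 of 11 T-cell genes were above background on all 8 marrow arrays. Of all probes, 59.8% to 85.2% were so on single marrow arrays, so these counts are a description only. The part of the listed cell types in the integrin changes was not tested. The myeloid and signalling lists share Tyrobp and Fcer1g.

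Within a tissue the alpha chains varied with marker lists from array to array, several of them with more than 1 list. Itgam was set against 13 marker lists and the other 6 members, and each other member against the 13 lists, in each tissue, giving 194 relations with exact two-sided permutation p-values adjusted over all of them, of which 42 stayed under 0.05 for Pearson's r and 2 for Spearman's rho. In spleen the brightest Itgam probe went with the mean level of the neutrophil genes (Pearson r = 0.96, n = 8, exact p = 0.00114, adjusted 0.0305; Spearman rho = 0.88, exact p = 0.00724, adjusted 0.100), and r was 0.93 without the 2 arrays farthest from the median Itgam level. In marrow r was 0.92 (exact p = 0.00255, adjusted 0.0378; rho = 0.86, exact p = 0.0107, adjusted 0.115) and 0.70 without the 2 farthest arrays. Itgam went against the NK genes in spleen (r = -0.95, exact p = 0.000446, adjusted 0.0253; rho = -0.95, exact p = 0.00114, adjusted 0.0553), with r = -0.84 without the 2 farthest. Its relation to the B-cell genes there was r = -0.88 (exact p = 0.00169, adjusted 0.0327; rho = -0.90, exact p = 0.00456, adjusted 0.100) and -0.68 without the 2 farthest. Itgam also went with the primary granule and progenitor genes in spleen (r = 0.90, exact p = 0.00322, adjusted 0.0378; rho = 0.93, exact p = 0.00223, adjusted 0.0619), with r = 0.80 without the 2 farthest. Itgam went against the monocyte genes there (r = -0.82, exact p = 0.00982, adjusted 0.0476, rho = -0.79), with r = -0.65 without the 2 farthest. For the conventional dendritic genes r was -0.88 (exact p = 0.00412, adjusted 0.0378, rho = -0.86), and -0.62 without these arrays. For the general myeloid genes r was 0.86 (exact p = 0.00873, adjusted 0.0463, rho = 0.62), but 0.22 without these arrays. In marrow, r with the monocyte genes was 0.76 (exact p = 0.0708), and -0.14 without the 2 farthest.

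Itgax followed the conventional dendritic genes in spleen (r = 0.98, n = 8, exact p = 9.9e-05, adjusted 0.00962; rho = 0.98, exact p = 0.000397, adjusted 0.0385), and r remained 0.98 without the 2 farthest arrays. It also went with the NK genes there (r = 0.94, exact p = 0.00107, adjusted 0.0305; rho = 0.88, exact p = 0.00724, adjusted 0.100) and with the B-cell genes (r = 0.81, exact p = 0.00898, adjusted 0.0463; rho = 0.81, exact p = 0.0218, adjusted 0.146), and against the primary granule genes (r = -0.87, exact p = 0.00556, adjusted 0.0399; rho = -0.95, exact p = 0.00114, adjusted 0.0553). Whether a member went more closely with 1 list than with another was not tested. In marrow, where the dendritic genes were low on every array, r with them was 0.14. Itgad followed the red pulp macrophage genes in spleen (r = 0.98, n = 8, exact p = 5e-05, adjusted 0.00962; rho = 0.98, exact p = 0.000397, adjusted 0.0385), with r = 0.96 without the 2 farthest. In marrow r was 0.89 (exact p = 0.00392, adjusted 0.0378; rho = 0.76, exact p = 0.0368, adjusted 0.174) but 0.38 without the 2 farthest, so that relation rests on the control-diet HDC-/- array and the control-diet array labelled STAT4-/-. Nor was it particular to the red pulp list. Marrow Itgad also went with the NK genes (r = 0.91, exact p = 0.00322, adjusted 0.0378). It did so with the early B-cell (r = 0.87), B-cell (r = 0.85) and T-cell genes (r = 0.83) too. Without the 2 farthest arrays these values were 0.44, 0.30, 0.29 and 0.27. By rank, only Itgax with dendritic and Itgad with red pulp genes, both in spleen, stayed under 0.05 after adjustment. Both axes carry the scaling of the same array, arrays of a tissue differ in genotype, diet and scan, and a scan holds 4 arrays, too few for a value of its own.

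**Figure D3:**
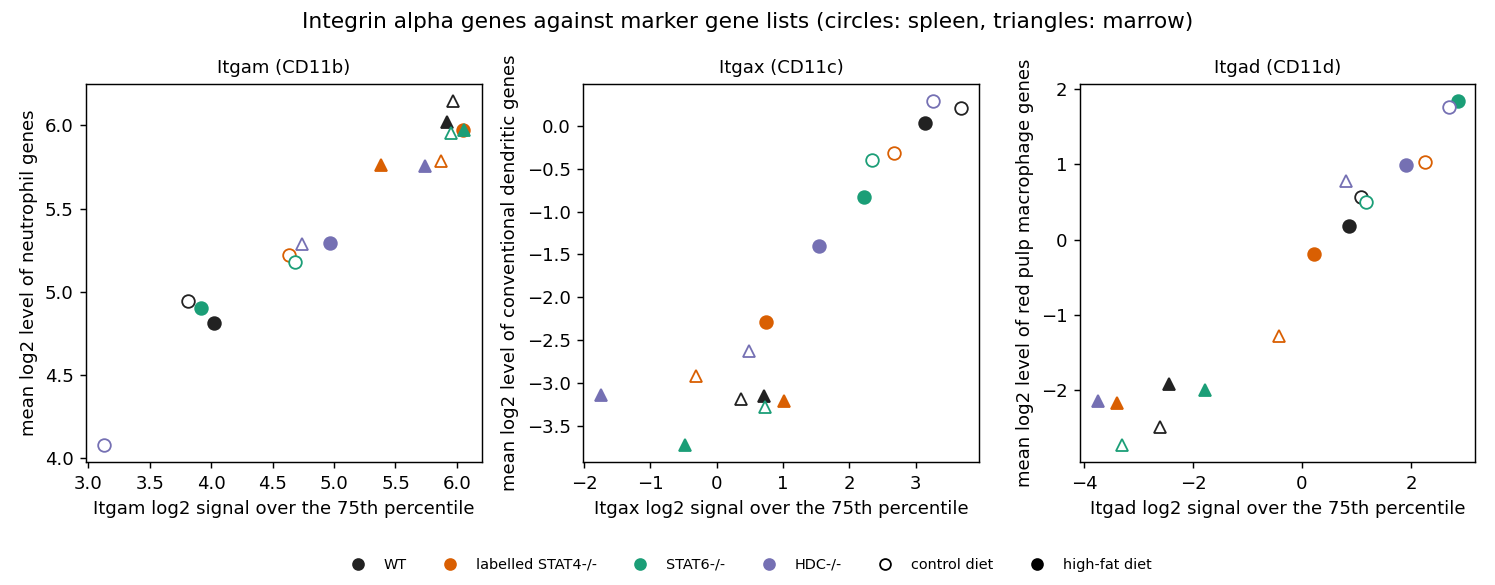
Log2 level of Itgam, Itgax and Itgad (horizontal axes, brightest probe) against the mean log2 level of neutrophil, conventional dendritic and red pulp macrophage genes (vertical axes); circles are spleen and triangles marrow arrays, coloured by genotype label, open for control and filled for high-fat diet. In spleen the points of each panel rise together (r of 0.96, 0.98 and 0.98), while the marrow triangles of Itgax show no such line (r of 0.14).

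Over all 16 arrays, the named genes whose log2 levels were most like the brightest Itgam probe were C3 (complement component 3, also on the ligand list), Lta4h (leukotriene A4 hydrolase), Mettl9, Mgst2 and Pygl (liver-type glycogen phosphorylase), with r of 0.99 for each, among 12811 genes well above background on every array whose median r was 0.37. Among the least like were S1pr5, Extl3, Cyria and Calhm2, with r of -0.97 to -0.96. With the mean of each tissue removed, C3, Lta4h and Mettl9 stayed among the 5 highest (r of 0.98), joined by Gbe1 (glycogen branching enzyme) and Ppm1m, and S1pr5 and Extl3 among the 5 lowest (-0.94). Among members, Itgb2 had r = 0.92 with Itgam (0.85 with tissue means removed), Itga4 -0.86 (-0.78), Itgax -0.84 (-0.64), Itgad -0.77 (-0.47), Itgb1 -0.77 (-0.46) and Itgal -0.30 (-0.15), each by its brightest probe. These are descriptions over arrays that share a scaling, with no test.

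No integrin probe was called between the diets. With a high-fat diet, 0 of 12 probes were called in spleen (limma adjusted p of 0.771 to 0.907), in marrow (0.69 to 0.975), over both tissues (0.383 to 0.788) or for the difference between tissues (all 1). Over all probes 0% were called in each of these, with 1567, 2082, 4390 and 386 of 34449 under an unadjusted p of 0.05, of which 1, 0, 1 and 0 were integrin probes. On the brightest Itgam probe, the high-fat-minus-control difference was 0.68 (SE 0.42) in spleen and 0.14 (SE 0.42) in marrow. The pairs did not move alike. Over the 4 pairs of WT and STAT6-/- the mean Itgam difference was -0.12, with 2 pairs higher and 2 lower. Over the 4 pairs of the STAT4-/- label and HDC-/-, whose control arrays had low Y-linked signal, it was 0.94, with 3 higher and 1 lower. Itgb2 gave -0.06 and 0.88, with 2 of 4 and 4 of 4 higher.

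Itgad differed in the other sense, with a mean of 0.79 over WT and STAT6-/- pairs (3 of 4 higher) and -2.59 over the other pairs (4 of 4 lower), and so did the brighter Itga4 probe, with -0.10 and -1.17 (0 of 4 higher in the second set). Diet and the Y-linked difference cannot be told apart in those pairs. Itgax was lower on the high-fat diet in 4 of 4 spleen pairs, with differences of -1.93 to -0.13 and a change of -1.08 (SE 0.54, limma adjusted p = 0.771), and in 2 of 4 marrow pairs.

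**Figure D4:**
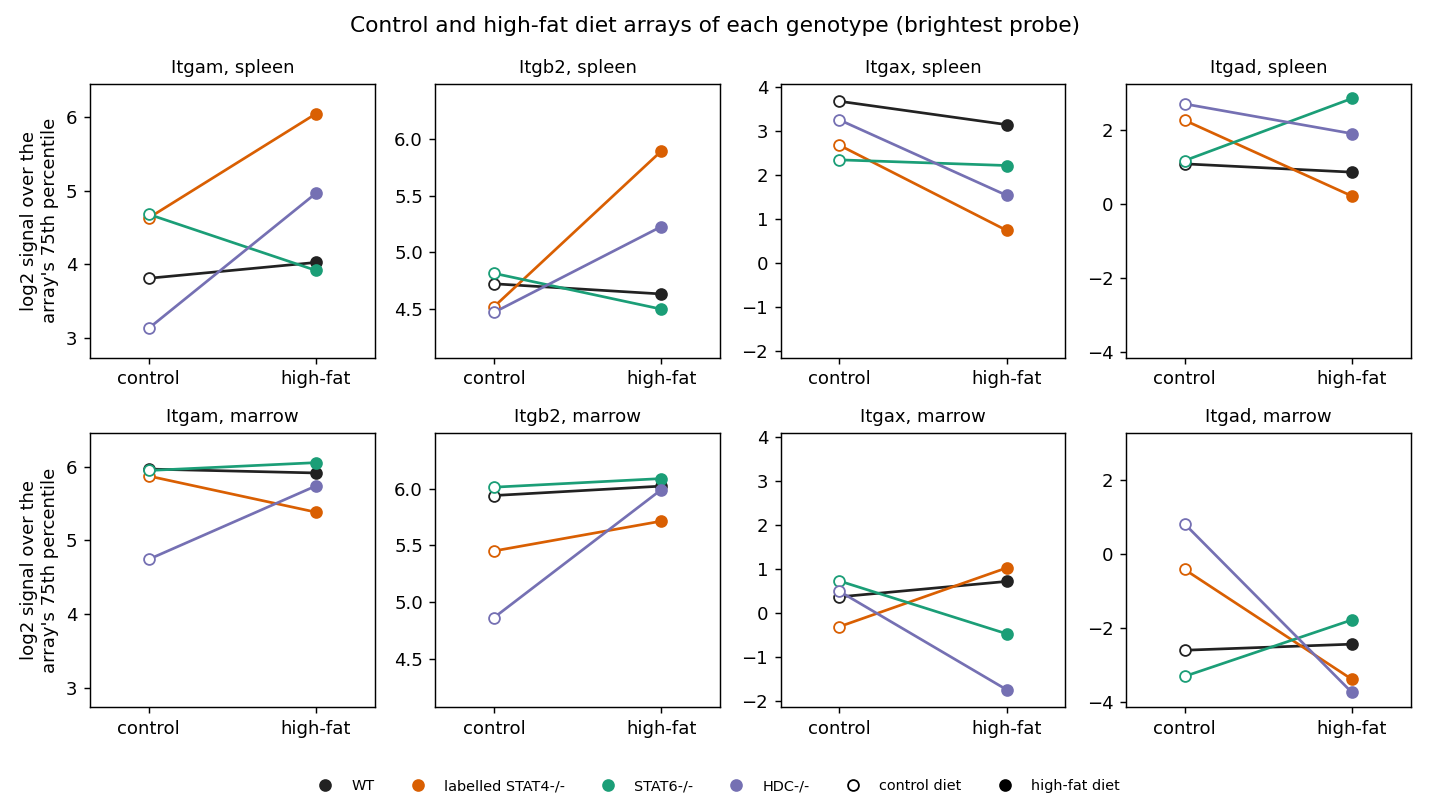
Log2 level (vertical axis, brightest probe) of Itgam, Itgb2, Itgax and Itgad on the control and the high-fat array of each genotype, spleen above and marrow below; each line joins the 2 arrays of 1 genotype label. Lines of WT and STAT6-/- are flatter than those of the STAT4-/- label and HDC-/- for Itgb2, and Itgax goes down in all 4 spleen pairs.

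No integrin probe was called between genotypes either. Against WT, 0 of 12 were called for the STAT4-/- label (0.0174% of all probes called), for STAT6-/- (0.029%) and for HDC-/- (0.151%), and 0 of 12 for HDC-/- against STAT6-/-, which share scans (0.00871%). None of the 12 had an unadjusted p under 0.05 in these 4 comparisons. Mean Itgam levels over both diets in spleen were 3.92 for WT, 5.34 for the STAT4-/- label, 4.30 for STAT6-/- and 4.05 for HDC-/-, and in marrow 5.94, 5.63, 6.003 and 5.24. The arrays of 1 genotype lay up to 1.84 apart in spleen, farther than these genotype means did. Averaged over tissues, Itgam differed from WT by 0.55, 0.22 and -0.29 (SE 0.42 each; limma adjusted p = 0.681, 0.991 and 0.844). Itgax, whose spleen level was 3.41 in WT and 1.71, 2.28 and 2.40 in the others, was the member with the lowest adjusted p against WT in HDC-/-: it differed by -0.94 for the STAT4-/- label, -0.77 for STAT6-/- and -1.09 for HDC-/- (SE 0.54 each; limma adjusted p = 0.576, 0.899 and 0.49). In the comparisons of the STAT4-/- label and STAT6-/-, the Itgal probe A_55_P2184601 had the lowest adjusted p of the 12. It differed from WT by -0.63, -0.58 and -0.57 in the same order (SE 0.29 each; limma adjusted p = 0.51, 0.781 and 0.511). The Itgal probe A_51_P466378 differed by -0.55, -0.46 and -0.52 (SE 0.29 each). The 3 comparisons share the WT arrays.

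The difference of the genotype effects between spleen and marrow was called for 0 of 12 probes for each genotype, where 0%, 7.11% and 15.7% of all probes were called for the STAT4-/- label, STAT6-/- and HDC-/-. For STAT6-/- and HDC-/-, 99.6% and 99.8% of those calls were in the positive direction, and the calls depended on the processing: 0% were called for either under quantile normalization, with normexp, for probes above background on all arrays or without the 4 arrays of low Y-linked signal, and under median scaling 0% for STAT6-/- and 6.72% for HDC-/-. For the STAT4-/- label, 6238 of all probes but none of the 12 had an unadjusted p under 0.05. The largest such value was that of Itgam for the STAT4-/- label, 1.74 (SE 0.84, limma adjusted p = 0.298), which includes the high-fat spleen array near the marrow arrays. Among the ligands, Fga, the fibrinogen alpha chain, and Vtn (vitronectin) were called there, with differences of 3.46 (SE 0.65) and 3.08 (SE 0.67) for STAT6-/- and 3.10 (SE 0.65) and 3.47 (SE 0.67) for HDC-/-. For HDC-/- the junctional adhesion molecule Jam2 was called too, with 2.55 (SE 0.71, limma adjusted p = 0.0362). Since no probe at all was called under quantile normalization or normexp, neither were these ligands. These genotypes lie in other scans than WT in both tissues, and the scan of STAT6-/- and HDC-/- marrow had the fewest probes above background, 59.8% to 68.7% against 70.2% to 85.2% in the other 3 scans.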

How the data were processed

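RNA of CD11b+ cells was measured on 16 one-colour Cy3 arrays. Per the file headers, the authors deposited Agilent Feature Extraction 11.0.1.1 output, whose processed intensity for each spot is background-subtracted and not scaled between arrays. Array positions and scans came from the same headers. Groups came from the labels.

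Probes were named through RefSeq accessions (27234 of 39429, or 69.1%, matched to 20659 symbols), and 305 probes with a flagged spot, none of them a member, were left out. Signals were put on the log2 scale minus each array's 75th percentile, and probes well above background on at least 2 arrays were tested (34449). The fit used limma 3.58.1 in R 4.3.3 (data.table, version 1.17.8) with a mean per genotype and tissue and a diet term per tissue (6 residual degrees of freedom), two-sided, with Benjamini-Hochberg adjustment over all probes and calls under 0.05. "Rose", "fell" and "called" refer to this test. Its number of arrays limits the precision. The script was tested on simulated data. Lists were read from each gene's brightest probe, and list genes named are up to 4 called ones of smallest p. Relations within tissues used SciPy 1.17.1. Members, lists and tests were chosen with earlier results of these data known. Alternatives covered scaling, background correction (normexp on median signals, since mean signals were not in the files used here), filter, probe choice, prior, model and arrays. A comparison of the protein sequences was planned and not made. Some genes that the naming rule picks are not reported here.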

Additional observations from a re-analysis of the deposited data

Results flagged for a closer look

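Each member probe was checked for an array far from the rest in the 8 arrays of a tissue and in the 4 of a tissue and diet, 72 groups in all, by Dixon's gap test. It marked 5, where chance marks about 1 in 20. The control-diet HDC-/- marrow array was the low array in 3 of them, all for Itgam: -1.89 on probe A_55_P1977926 among all marrow arrays (others -0.72 to -0.17), 1.75 on A_55_P1977929 among all marrow arrays (others 2.66 to 3.22), and 4.74 on A_55_P1977934 among control-diet marrow arrays (others 5.87 to 5.97). On the same array the red pulp macrophage list stood at 0.78 and the B-cell list at -0.21, the highest of the marrow arrays for both. The early B-cell list at 2.08 and the megakaryocyte list at 1.21 stood above every other array (spleen at most -2.33 and -1.14). This array was also the highest marrow array on the T-cell, NK, plasma, erythroid, conventional dendritic and primary granule lists. On the myeloid, neutrophil and monocyte lists it was the lowest marrow array. The WT high-fat marrow array was high on Itgam A_55_P1977929, at 3.14 where the other high-fat marrow arrays lay at 3.01 to 3.03. The WT control-diet marrow array was low on Itgb1 A_66_P113059, at 0.43 where the other 7 lay at 1.00 to 1.47. The causes were not tested.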

How the results depend on the processing

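Under the alternatives run, no integrin probe changed the direction of its tissue change. The count of 9 probes called between tissues became 5 with the brightest probe of each gene (of 7), 4 without the 4 arrays of low Y-linked signal, and 9 to 10 with any 1 array left out. Without those 4 arrays the Itgam change was -0.88 (limma adjusted p = 0.0765); over leaving out 1 array it was -1.54 to -1.06. Without scaling, Itgb2 was -0.48 (limma adjusted p = 0.099), the Itgam probe A_55_P1977926 -0.67 (limma adjusted p = 0.0635), and A_55_P2184601 of Itgal passed at 0.83 (limma adjusted p = 0.0255). The median tissue change of all probes was 0.38 without scaling and -0.46 with normexp against -0.05, and the share of called probes higher in spleen 83.1% and 17.4% against 47.5% (36.4% for probes above background on all arrays). The Itga4 probe A_55_P2040026 passed in 15 of 30 alternatives. Every count for diet and genotype was 0 under every alternative that gave one; additive models give no diet value per tissue, and WT and STAT6-/- arrays alone none for the other genotypes. Some uncalled values reversed. Without the 4 arrays of low Y-linked signal, and with WT and STAT6-/- arrays only, the diet difference in spleen was -0.27 for Itgam, -0.20 for Itgb2 and 0.73 for Itgad, and that of Itgad in marrow 0.84. These 2 alternatives give the same diet estimate by construction. Without the 4 arrays, the STAT4-/- label and HDC-/- have no control-diet array and add nothing to the diet term. Without the 2 arrays nearer the other tissue it was 0.22 for Itgad in spleen, and -0.15 for Itgam and 0.16 for Itgax in marrow; leaving out 1 array gave -1.02 to 0.22, -0.15 to 0.35 and -1.03 to 0.16. Itgam in STAT6-/- against WT was -0.12 without scaling and -0.26 to 0.70 with 1 array left out; in HDC-/- it was 0.0007 without the 2 arrays, 0.48 without the 4, and -0.67 to 0.10 with 1 array left out. The causes of these reversals were not tested. A fit with replicate number as a block could not be made because each group has 1 array; the sign-flip test paired spleen and marrow arrays by genotype and diet. Without the 4 arrays, B-cell genes were called higher for 10 of 11, T-cell for 9 of 11, red pulp for 9 of 9 and myeloid genes lower for 2 of 12, alternatives added after seeing the data.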
